A study of Homo sapiens with 4 samples.

Results

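The Notch genes described here are the receptors NOTCH1, NOTCH2, NOTCH3 and NOTCH4, the ligands JAG1, JAG2 and DLL1, the DNA-binding effector RBPJ, and the target genes HES1 and HEY1. They were chosen by symbol, and all 10 were found among the 23228 genes of the count files. The samples were labelled as OCSCs of SKOV3, an established human ovarian cancer cell line, sorted with the ALDEFLUOR kit for aldehyde dehydrogenase activity (ALDH+) and grown as spheroids without serum and with EGF and bFGF. They were exposed for 24 h to vehicle (2 samples) or to 5 µM of the ERβ agonist LY500307 (2 samples), and all 4 samples share the line, the sort and the medium. Transcripts were counted as reads per gene, and the comparison asks which of these genes differed in level between LY500307-treated and vehicle-treated OCSCs.

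Notch receptors sit at the cell surface and are bound by Jagged and Delta-like ligands on neighbouring cells. Binding lets ADAM proteases and then γ-secretase cut the receptor, and the freed intracellular part moves to the nucleus, where it joins RBPJ and Mastermind-like coactivators at target genes. The HES and HEY genes, which encode basic helix-loop-helix repressors, are the best known of these targets, and the pathway is widely studied in the self-renewal of stem and cancer stem cells.

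The letters that RBPJ is best known to bind, GTGGGAA, were searched on both strands of the 250 bases before each gene start in RefSeq (GRCh38.p14), where 8 of the 10 Notch genes had an entry. GTGGGAA was found in 5.43% of the 35116 windows of all genes, and the shorter TGGGAA, which every GTGGGAA also contains, in 20.8%. The HES1 window held GTGGGAA once, at position -85 from the start, and a further TGGGAA at -70 on the same strand. The windows of NOTCH1, NOTCH2, NOTCH3, NOTCH4, JAG1 and JAG2 held neither, and of the 5 RBPJ windows 1 held GTGGGAA, at -115 and -73 on opposite strands. The windows of HES1 (chr3:194135898-194136147, plus strand) and of its relative HES5 (chr1:2530264-2530513, minus strand) are shown 5′ to 3′ because both hold GTGGGAA while HES1 was read in every sample and HES5 in none. Capitals mark GTGGGAA, its reverse complement TTCCCAC, and TGGGAA.
HES1: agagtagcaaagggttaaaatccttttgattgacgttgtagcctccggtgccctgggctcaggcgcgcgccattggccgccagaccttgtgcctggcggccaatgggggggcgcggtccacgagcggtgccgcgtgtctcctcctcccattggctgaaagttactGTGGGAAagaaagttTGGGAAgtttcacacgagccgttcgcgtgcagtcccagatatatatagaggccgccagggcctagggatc
HES5: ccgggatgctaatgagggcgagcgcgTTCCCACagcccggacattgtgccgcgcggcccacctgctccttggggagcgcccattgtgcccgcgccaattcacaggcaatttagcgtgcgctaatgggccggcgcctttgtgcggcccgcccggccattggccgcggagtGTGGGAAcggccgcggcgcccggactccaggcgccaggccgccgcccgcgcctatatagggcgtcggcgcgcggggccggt
HES1 had 437 to 597 reads in each sample, whereas HES5 had 0 reads in all 4 samples. A count of 0 allows up to 3 reads per library, or 0.0864 to 0.106 CPM (reads of a gene relative to the scaled total of its library), a limit that covers counting error only.

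Gene totals lay between 28841701 and 34943882 reads per sample. The LY500307 samples differed more from each other (chi-square per degree of freedom 42.5 over genes) than the vehicle samples did (5.16). The deviation of each gene from its mean over the samples was set against exonic GC content across 13782 genes. The Spearman correlation was -0.29 and -0.23 in the vehicle samples and 0.06 and 0.31 in LY500307 replicates 1 and 2. Since the samples share this mean, a trend in some brings an opposite trend in others. The positive trend lay mostly in LY500307 replicate 2. Of the epithelial markers, EPCAM was read at 194 to 240 CPM, ERBB2 at 48.8 to 59.4 CPM and KRT18 at 23.5 to 31.8 CPM, whereas PAX8 was at 0 in every sample, KRT7 and KRT19 had reads in LY500307 replicate 2 alone, and KRT8 and MSLN stayed at or below 1.02 CPM. ALDH1A2 was read at 9.998 to 11.3 CPM and ALDH1A1 at 4.72 to 5.41 CPM, whereas ALDH1A3 had 8 to 16 reads per sample. Of 5 endothelial markers, KDR was read at 133 to 151 CPM and the other 4 were at or below 0.371 CPM. All 5 leukocyte markers were at or below 0.774 CPM. The 5 fibroblast and mural cell markers summed to 652 and 659 CPM with vehicle and to 695 and 774 CPM with LY500307, most of it from COL1A1 and COL3A1, and the part of these markers in the results was not tested. The markers were therefore mixed. EPCAM, ERBB2 and KRT18 were read and 4 of 5 endothelial markers were near 0. PAX8, KRT7 and KRT19 were also at or near 0, beside high KDR, COL1A1 and COL3A1. Every level below is that of cells labelled SKOV3, whose identity was not tested.

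NOTCH3 was the most abundant of the Notch genes per length of transcript. With vehicle its level was 25.4 ± 0.919 CPM per kb (SD, n = 2), higher than that of 75.9% of the 13621 genes tested that had a length. RBPJ followed at 16.6 ± 1.10, NOTCH2 at 13.3 ± 0.239, HES1 at 9.61 ± 0.222 and NOTCH1 at 6.19 ± 0.152 CPM per kb. JAG2 was read at 2.43 ± 0.173 and HEY1 at 1.35 ± 0.622 CPM per kb. The lowest levels were those of JAG1 (0.226 ± 0.110), NOTCH4 (0.122 ± 0.0261) and DLL1 (0.0807 ± 0.0482 CPM per kb). The vehicle samples of NOTCH4 and DLL1 overlapped, and no other neighbours in this order did. With all annotated exons in place of the canonical transcript, RBPJ stood in place 4 of 10 instead of 2, behind NOTCH2 and HES1, since its annotated exons are long.

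**Figure D1:**
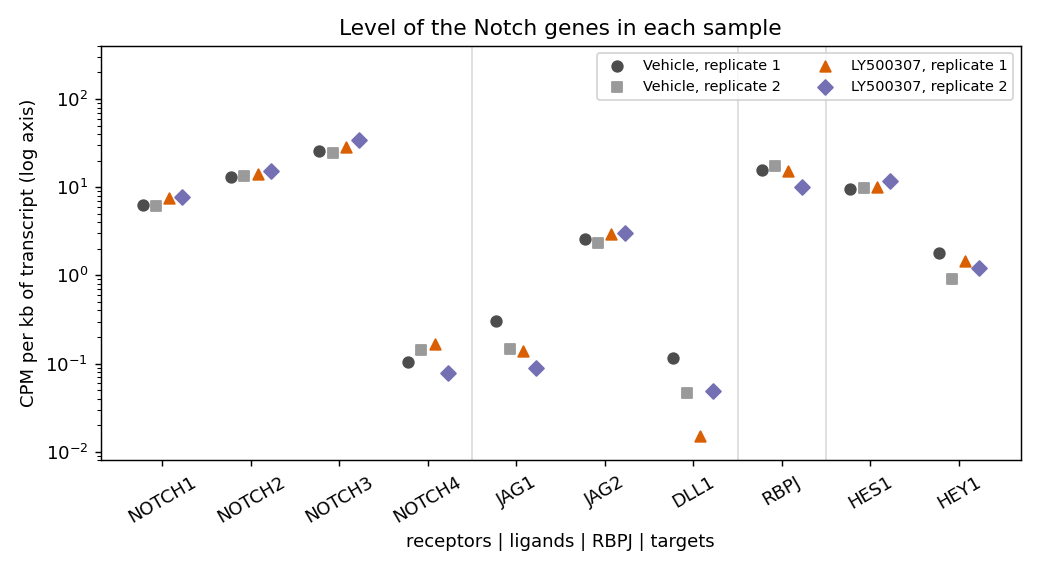
Level of each of the 10 Notch genes in each of the 4 samples, in CPM per kb of the canonical transcript on a log axis. NOTCH3 lies highest in every sample, and JAG1, NOTCH4 and DLL1 lie below 0.4 CPM per kb in every sample.

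Among the receptors, NOTCH3 held 55.7% to 60.03% of the summed CPM per kb in each sample, NOTCH2 26.4% to 30.3%, NOTCH1 13.4% to 14.97% and NOTCH4 at most 0.332%. The share of NOTCH2 was 28.8% and 30.3% with vehicle and 28.1% and 26.4% with LY500307, whereas the shares of the other receptors overlapped between the groups. Among the 5 canonical ligands, DLL3 and JAG2 together held most of the summed level, DLL3 53.4% to 69.3% and JAG2 28.2% to 39.2%. JAG1 held 4.21% and 2.28% with vehicle and 1.90% and 0.831% with LY500307. DLL1 held 1.59% and 0.716% with vehicle and 0.206% and 0.461% with LY500307. JAG1 rests on 17 to 54 reads per sample and DLL1 on 2 to 13. Shares of the same sum move against each other, and that of DLL3 was highest in LY500307 replicate 2.

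Of the 10 Notch genes, 9 passed edgeR's filter on low counts and were tested, and DLL1 did not pass. By the criteria of the study's methods (p below 0.05 before adjustment and a log2 fold change beyond 0.5 in either direction), 0 of the 9 were called by edgeR, against 4.62% of the 14473 genes tested (2.76% higher and 1.86% lower with LY500307). DESeq2, which also tested DLL1, called 0 of 10 by the same criteria, beside 566 genes in all. An unadjusted p below 0.05 alone was reached by 2 of the 9, NOTCH1 and NOTCH3, both higher, where 11.6% of all genes tested reached it (6.09% higher and 5.5% lower). DESeq2 gave such a p for these genes and for RBPJ. The shares of all genes that DESeq2 called or gave such a p were not computed. After adjustment over all genes tested, edgeR left 0 (0%) below 0.05, of 1678 before it, and DESeq2 left 16, none of them a Notch gene. DESeq2 gave no adjusted p for NOTCH4, JAG1, DLL1 and HEY1, which therefore could not be among them. With 2 samples against 2, the smallest two-sided p of an exact permutation test is 0.333.

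After scaling, both LY500307 samples were above both vehicle samples for NOTCH1, NOTCH2, NOTCH3, JAG2 and HES1, and below them for JAG1 and RBPJ. Among all genes tested, 24.2% were separated in the first way and 24.4% in the second. In all 7 of these Notch genes, LY500307 replicate 2 lay farther from the vehicle mean than replicate 1 did. The share of all genes tested with this order was not computed, so it is not shown to be particular to the Notch genes. For genes of at least 60% GC, the median log2 deviation from vehicle was 0.06 in replicate 1 and 0.22 in replicate 2. Below 40% GC it was -0.09 and -0.17. Only at 45% to 50% GC was replicate 1 farther (0.02 against 0.0004). The groups overlapped for NOTCH4 and HEY1. The median log2 fold change of the 9 genes was 0.14 and that of all genes tested was -5.64e-05.

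**Figure D2:**
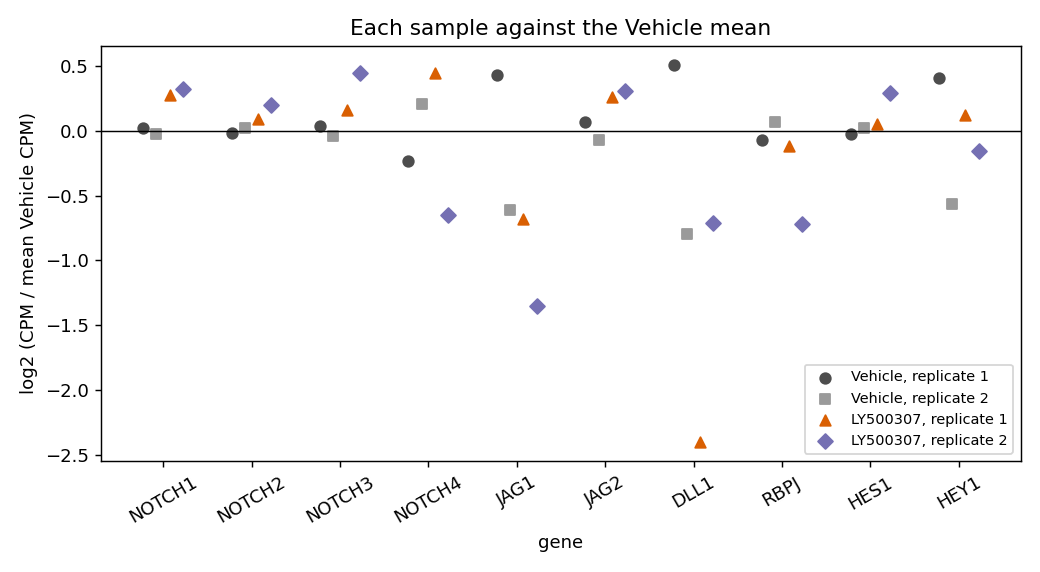
CPM of each Notch gene in each sample, divided by the mean of the vehicle samples, on a log2 scale. For RBPJ and NOTCH3, LY500307 replicate 1 lies at -0.12 and 0.16 and replicate 2 at -0.72 and 0.44, and DLL1 rests on 2 to 13 reads per sample.

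NOTCH1 lies on chromosome 9 of GRCh37 (139388885 to 139440500, minus strand) and encodes the founding member of the receptor family. It was read at 60.3 and 58.2 CPM with vehicle and at 71.8 and 73.9 CPM with LY500307, so that the groups did not overlap and the replicates of each group differed by little. This is a log2 fold change of 0.30 (standard error 0.10, 95% interval 0.06 to 0.53, edgeR adjusted p = 0.422), or 1.23-fold. NOTCH1 is a GC-rich gene (63.2% of exonic bases). With the GC correction its log2 fold change was 0.18, with an interval from -0.05 to 0.41.

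NOTCH3 lies on chromosome 19 (15269849 to 15311806, minus strand) and encodes a receptor often studied in ovarian carcinoma. It was read at 226 and 215 CPM with vehicle and at 246 and 300 CPM with LY500307. LY500307 replicate 2 stood well above replicate 1, which lay nearer to the vehicle samples than to it. NOTCH3 differed by 0.31 on the log2 scale (standard error 0.12, interval 0.03 to 0.59, edgeR adjusted p = 0.428). Leaving out LY500307 replicate 2 gave 0.16 and leaving out replicate 1 gave 0.45, and with the GC correction it was 0.19 (interval -0.04 to 0.42) for this gene of 62.4% GC.

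NOTCH2 lies on chromosome 1 (120454176 to 120643366, minus strand) and was read at 150 and 154 CPM with vehicle and at 161 and 174 CPM with LY500307. The groups were separated by less than the spread within the LY500307 group, and the log2 fold change of 0.14 had an interval from -0.08 to 0.37. With the GC correction it was 0.16. NOTCH2NL, a partial copy of NOTCH2 on the same chromosome, was read at 6.94 and 7.67 CPM with vehicle and at 9.02 and 9.75 CPM with LY500307 (log2 fold change 0.36, standard error 0.18). Reads that fit both genes equally are not uniquely aligned, so the division of reads between them is uncertain.

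NOTCH4 lies on chromosome 6 (32162620 to 32191844, minus strand), encodes a receptor best known from endothelium, and had 21, 27, 39 and 17 reads in vehicle replicates 1 and 2 and LY500307 replicates 1 and 2. Its lowest and highest samples were both LY500307 samples. With a log2 fold change of 0.0077 and an interval from -1.19 to 1.21, a difference was not detectable at this depth. The direction of NOTCH4 depended on the processing. Of its 6 tested neighbours, AGER (log2 fold change -1.32, standard error 0.21) and EGFL8 (-1.61, standard error 0.67, 4 to 33 reads per sample) met the criteria, while GPSM3, PBX2, AGPAT1 and PPT2 did not. Of all genes tested, 4.62% met the criteria and 1.86% met them with a lower level. The neighbours were listed because AGER was already known to be lower in these data. Their count is therefore not an independent draw to set against these shares. EGFL8 no longer met them with DESeq2, without vehicle replicate 2 (-1.16) or without LY500307 replicate 2 (-0.98). RNF5, the other neighbour listed, had 0 or 1 read per sample and was not tested, and 98 exonic bases of NOTCH4 are shared with GPSM3 on the same strand.

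JAG2 encodes a transmembrane ligand (chromosome 14, 105607319 to 105635161, minus strand). It was read at 14.8 and 13.3 CPM with vehicle and at 16.8 and 17.3 CPM with LY500307, and the groups did not overlap. JAG2 differed by 0.28 on the log2 scale (standard error 0.15, interval -0.06 to 0.62). This gene had the highest GC content of the members (64.2%), and with the GC correction its log2 fold change was 0.15. With an lncRNA on the same strand, JAG2 shares 7.33% of its exonic bases.

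JAG1, the other Jagged ligand (chromosome 20, 10618332 to 10654647, minus strand), was counted with 54 and 25 reads with vehicle and 29 and 17 reads with LY500307, or 1.80, 0.880, 0.836 and 0.526 CPM. Vehicle replicate 1 alone was high, and vehicle replicate 2 and LY500307 replicate 1 were nearly level. The log2 fold change of -0.97 was the largest in size among the 9 genes tested, but its standard error was 0.50 and its interval ran from -2.14 to 0.19. It was -0.36 without vehicle replicate 1 and -1.39 without vehicle replicate 2, where it met the criteria. By counting error alone, the ratio of LY500307 to vehicle was 0.507 (exact Poisson 95% interval 0.345 to 0.739), which leaves out the spread between replicates. An lncRNA on the opposite strand covers 3.29% of the exonic bases of JAG1.

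DLL1, a Delta-like ligand (chromosome 6, 170591294 to 170615653, minus strand), had 13 and 5 reads with vehicle and 2 and 6 reads with LY500307. The groups overlapped, and the ratio of the summed counts was 0.387 (exact Poisson 95% interval 0.146 to 0.936). That interval covers counting error only and leaves out the spread between replicates, and DESeq2, which tested DLL1, gave an unadjusted p of 0.339. Of its exonic bases, 9.69% are shared with FAM120B on the opposite strand, and reads there cannot be assigned without the strand setting of the counting, which is not given in the sources used here. The labels name a total RNA library and the study's methods a stranded mRNA library. The other Delta-like ligands were DLL3, with 7.71 and 7.71 CPM with vehicle and 8.30 and 14.8 CPM with LY500307, and DLL4, with 0.464 to 1.301 CPM. Only LY500307 replicate 2 of DLL3 stood apart, and its log2 fold change of 0.58 (standard error 0.27) was 0.11 without that sample.

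RBPJ encodes the DNA-binding protein through which all Notch receptors act on target genes (chromosome 4, 26165077 to 26436753, plus strand). It was read at 85.6 and 93.9 CPM with vehicle and at 82.6 and 54.4 CPM with LY500307. LY500307 replicate 2 was far below the other 3 samples, and replicate 1 was just below the lower vehicle sample. RBPJ differed by -0.39 on the log2 scale (standard error 0.18, interval -0.81 to 0.03, edgeR adjusted p = 0.434). The value moved to -0.12 without LY500307 replicate 2 and to -0.72 with replicate 1 left out instead, where RBPJ met the criteria. RBPJ had the lowest GC content of the members (39.9%), and with the GC correction its log2 fold change was -0.30.

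HES1 (chromosome 3, 193853937 to 193856521, plus strand) was read at 14.9 and 15.4 CPM with vehicle and at 15.7 and 18.5 CPM with LY500307. LY500307 replicate 1 was almost level with the vehicle samples, and replicate 2 was higher. HES1 differed by 0.18 on the log2 scale (standard error 0.15, interval -0.18 to 0.53), and it was 0.05 without LY500307 replicate 2. HEY1 (chromosome 8, 80674606 to 80680092, minus strand) was read at 3.94 and 2.01 CPM with vehicle and at 3.23 and 2.66 CPM with LY500307. Both LY500307 samples of HEY1 lay between the vehicle samples, and the log2 fold change of -0.015 (interval -0.83 to 0.80) changed direction with the processing.

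**Figure D3:**
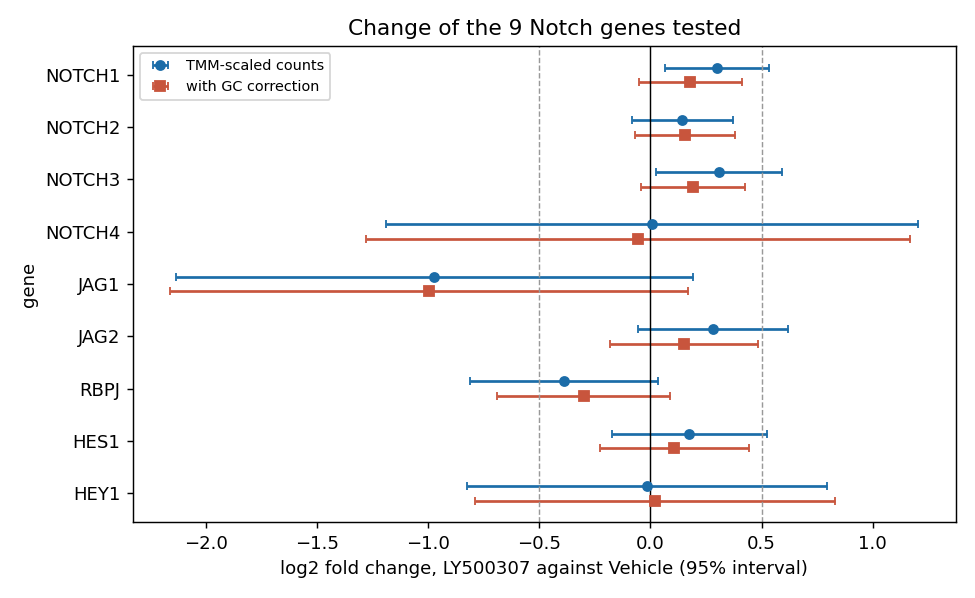
Log2 fold change of the 9 Notch genes tested, LY500307 against vehicle, from edgeR with TMM scaling and with the GC correction, with 95% intervals. Dashed lines mark 0.5 in either direction, and the intervals of NOTCH1 and NOTCH3 lie above 0 without the correction and include 0 with it.

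The members with the largest positive log2 fold changes were also GC-rich. NOTCH1, NOTCH3 and JAG2, with 62.4% to 64.2% GC, had log2 fold changes of 0.28 to 0.31, and the median of the 1899 genes tested with at least 60% GC was 0.14. RBPJ, with 39.9% GC, had a log2 fold change of -0.39, and the median of the 2296 genes below 40% GC was -0.13. NOTCH2 (46.6% GC) and HES1 (52.3% GC) stood 0.14 and 0.18 higher, where genes of 45% to 50% GC had a median of 0.01 and those of 50% to 55% GC a median of 0.07. With the GC correction, 0 of the 9 intervals excluded 0, and 5 of the 7 genes whose groups did not overlap had a smaller change. These counts were not made over all genes tested, of which 669 met the criteria without the correction and 553 with it. GC content moved with the groups in these samples, and a trend with GC and an effect of LY500307 on GC-rich genes cannot be told apart.

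**Figure D4:**
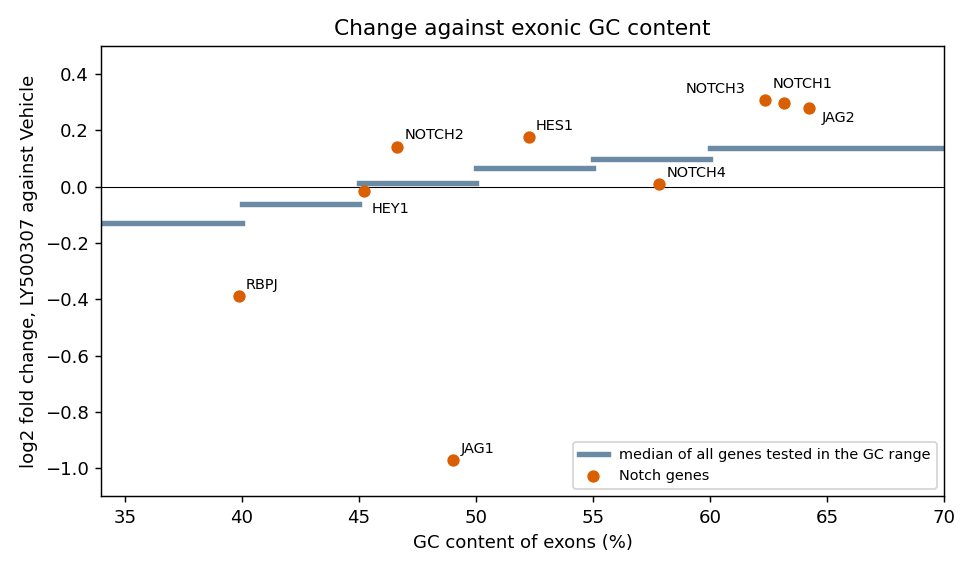
Log2 fold change of the 9 Notch genes tested against the GC content of their exons, with the median of all genes tested in 6 GC ranges (horizontal bars; the outermost ranges are open and are drawn to the edge of the plot). The medians go from -0.13 below 40% GC to 0.14 at 60% GC or more, and NOTCH1, NOTCH3 and JAG2 lie at 0.28 to 0.31.

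Of 73 other genes of the pathway from the hand-written lists, 67 were tested. By the criteria, 4 were higher with LY500307 (LFNG, PSENEN, KAT2B and PLAU) and 0 were lower, where 2.76% of all genes tested were higher and 1.86% lower. At an unadjusted p below 0.05, 6 were higher and 1 was lower, where 6.09% of all genes tested were higher and 5.5% lower, and 0 had an adjusted p below 0.05. Their median log2 fold change was -0.0068. LFNG, a fringe glycosyltransferase that adds sugars to Notch receptors, had 34 and 36 reads with vehicle and 74 and 91 reads with LY500307. Both LY500307 samples were clearly above both vehicle samples, by 1.04 on the log2 scale (standard error 0.33), or 0.91 with the GC correction. It no longer met the criteria without LY500307 replicate 2 (log2 fold change 0.83).

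PSENEN, a subunit of γ-secretase, was read at 21.2 and 22.5 CPM with vehicle and at 28.6 and 35.9 CPM with LY500307. The log2 difference was 0.56 (standard error 0.15) and 0.39, short of the criteria, without LY500307 replicate 2. The 8 other cleavage genes tested did not meet the criteria. The γ-secretase subunit APH1A was read at 144 and 148 CPM with vehicle and at 150.5 and 238.5 CPM with LY500307, so that 1 sample stood apart. The protease ADAM10 was read at 190 to 206 CPM.

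KAT2B, a histone acetyltransferase and coactivator, was read at 6.24 and 6.54 CPM with vehicle and at 9.13 and 9.19 CPM with LY500307. The replicates of KAT2B lay close together, and its log2 fold change was 0.52 (standard error 0.18) and 0.60 with the GC correction. Without either vehicle replicate it did not meet the criteria (0.49 and 0.55, each with a p above 0.05). The other coactivators were not called, among them KAT2A (log2 fold change 0.24) and EP300, which was read at 401 to 494 CPM. Of 13 corepressors tested 0 were called, against 4.62% of all genes tested, CTBP1 and L3MBTL3 having the smallest p (log2 fold changes 0.24 and -0.20).

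PLAU, which encodes urokinase, was read at 39.4 and 39.7 CPM with vehicle and at 55.8 and 59.4 CPM with LY500307. The groups lay well apart, and the log2 fold change of 0.54 (standard error 0.11) fell short of 0.5 with the GC correction (0.46) and without LY500307 replicate 2 (0.49). Of the other targets, BHLHE40 had a log2 fold change of -0.27 (edgeR unadjusted p = 0.0427, exact permutation not below 0.333), and CCND1, read at 345 to 371 CPM, one of 0.06. NRARP, a feedback inhibitor induced by Notch, was read at 17.6 and 19.1 CPM with vehicle and at 22.4 and 20.6 CPM with LY500307.

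In the HES and HEY family, 0 of the 6 further genes tested met the criteria (4.62% of all genes did), with log2 fold changes from -0.56 (HEY2) to 0.61 (HES6). HEY2 was read at 5.00 and 5.10 CPM with vehicle and at 4.38 and 2.48 CPM with LY500307. HES6, which opposes HES1 in neural cells, was read at 19.3 and 19.0 CPM with vehicle and at 19.6 and 38.8 CPM with LY500307. In both genes LY500307 replicate 2 alone stood far from the rest, and without it the log2 fold changes were -0.21 and 0.03. HES2, HES4, HES7 and HEYL lay between -0.04 and 0.14.

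Among the other groups, the non-canonical ligand DLK1 was read at 31.7 and 36.9 CPM with vehicle and at 40.05 and 52.6 CPM with LY500307. Its log2 fold change of 0.43 (standard error 0.16) was below the 0.5 limit. CNTN1 had a log2 fold change of 0.51 with a standard error of 0.57. Of the glycosylation genes, RFNG had a log2 fold change of 0.34 and POFUT1, the fucosyltransferase of Notch, read at 114 to 124 CPM, one of 0.09. Of the 13 ubiquitin and endocytosis genes, 0 met the criteria, beside 4.62% of all genes tested. The ubiquitin ligase gene DTX4 was closest (0.44, standard error 0.13), NUMB, an antagonist of Notch, had a log2 fold change of -0.18, and MIB1, which acts on ligands, was read at 288 to 326 CPM.

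**Figure D5:**
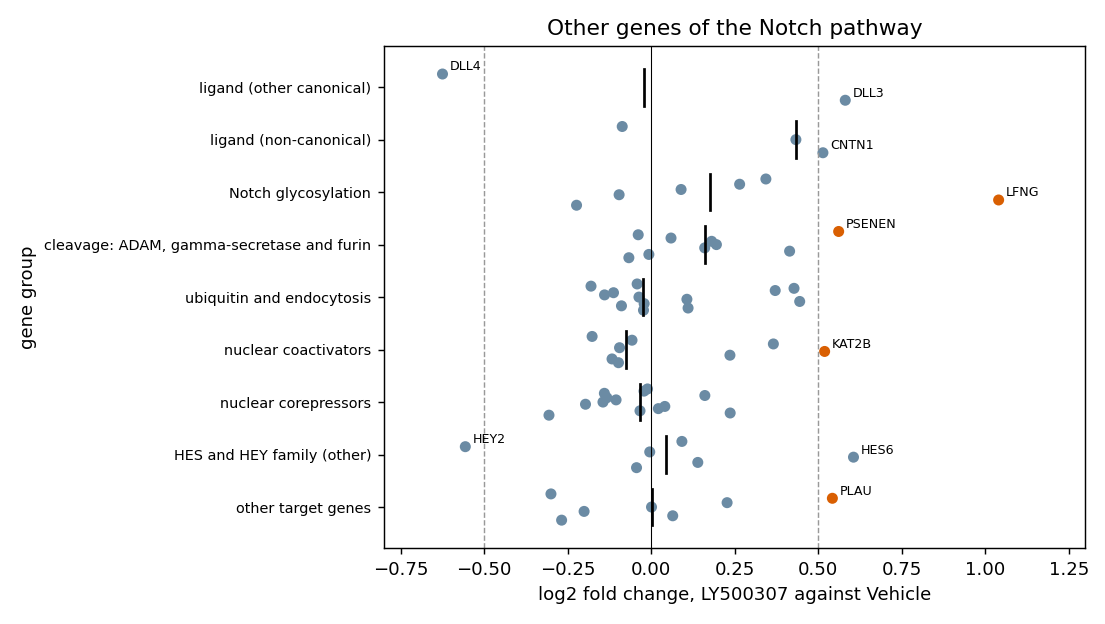
Log2 fold change of the 67 other pathway genes tested, by group, with the median of each group as a black bar. Points in orange met the criteria (LFNG, PSENEN, KAT2B and PLAU), dashed lines mark 0.5 in either direction, and genes beyond them are named.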

How the data were processed

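RNA was measured in 2 vehicle and 2 LY500307 samples of SKOV3-ALDH+ OCSCs, grouped by their titles. Per the labels, the tools of the authors were TopHat2 2.0.8b (alignment, hg19) and HTSeq, which gave the deposited raw counts per gene symbol without normalization. The strand setting of the counting is not given in the sources used here, and reads without a unique alignment were tallied apart. HTSeq tally lines, of which reads on no gene made up 17.3% to 20.5% of the tallied reads, were left out of library sizes and tests.

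In R 4.3.3, counts were tested with edgeR 4.0.16 (TMM scaling, filterByExpr, quasi-likelihood test, Benjamini-Hochberg adjustment over all genes tested). The standard error was the absolute log2 fold change divided by the square root of F. Criteria were those of the study's methods, p below 0.05 before adjustment and a log2 fold change beyond 0.5 in either direction. CPM use TMM-scaled library sizes. Lengths, GC content and positions came from GENCODE on GRCh37, to which 91.8% of 23228 symbols were matched. Levels per kb use the canonical transcript. For the GC correction, log2 CPM with a prior count of 2 was smoothed against exonic GC content in each sample (loess, span 0.3) and the curve entered the fit as an offset. DESeq2 1.42.0, other scalings and filters, a replicate block and leaving out each sample were alternatives. The procedure was tested on simulated counts of 14317 genes, of which 199 were changed by 1 on the log2 scale. The criteria recovered 93.97% of the changed genes and also called 251 unchanged genes. The log2 fold changes of the 9 Notch genes tested lay between -0.97 and 0.31, and recovery of changes smaller than 1 was not tested.

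The genes named were all 10 Notch genes and, from hand-written pathway lists, those meeting the criteria, per group the 2 with the smallest p and the one with the highest CPM, the ligands and HES/HEY genes, copies of the members and neighbours of NOTCH4. A result that this rule names is not reported here. CIR1 and NRARP were named after their values were seen. The members and lists were chosen with earlier results of these data known. Nothing in the labels says that replicates were separate cultures, so p-values measure only the spread between these samples.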

Additional observations from a re-analysis of the deposited data

Results flagged for a closer look

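Reads that fell on more than one gene were outside the comparison. They made up 0.463% and 0.481% of the tallied reads in LY500307 replicates 1 and 2 and 0.453% and 0.440% in the vehicle samples, so that both LY500307 samples lay above both vehicle samples. Such reads are not in the counts of DLL1 or NOTCH4, whose exons overlap other genes, and their part in those counts was not tested.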

How the results depend on the processing

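With 2 samples a group, 1 library decides several values. The number of Notch genes meeting the criteria was 0 under every alternative with all samples and 0 to 1 with a sample left out (JAG1 without vehicle replicate 2, RBPJ without LY500307 replicate 1). The pathway lists gave 4 genes, and 2 to 13 with a sample left out, and all genes gave 669, and 345 to 1991, the lower values of both without LY500307 replicate 2 and the higher without LY500307 replicate 1, where the lone sample is assumed to vary like the other group. With all samples kept, the alternatives gave 3 to 6 pathway genes and 553 to 816 among all genes. The replicate block gave 717 genes, and no Notch gene met the criteria with it. With this block the unadjusted edgeR p of NOTCH3 went to 0.0662 and that of RBPJ to 0.0178. Without vehicle replicate 1 or 2, the unadjusted edgeR p was 0.142 or 0.209 for NOTCH1 and 0.172 or 0.275 for NOTCH3. Nothing in the labels pairs same-numbered samples, and their deviations had a correlation of -0.07 over all genes tested. Since the LY500307 samples differed far more from each other than the vehicle samples did, this value cannot exclude pairing. The log2 fold change of NOTCH4 was -0.049 with the replicate block, -0.058 with the GC correction, -0.12 with both and -0.64 to 0.44 with a sample left out. That of HEY1 was 0.040, 0.020 and 0.074 in the same order, 0.021 with library totals alone and -0.42 to 0.55 with a sample left out. The cause was not tested. None of the other 7 Notch genes tested changed direction under any alternative run. At these depths, NOTCH4, JAG1 and DLL1 had too few reads to show any but large differences.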

Other observations

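CIR1, a corepressor that binds RBPJ, was read at 50.8 and 60.1 CPM with vehicle and at 60.9 and 28.7 CPM with LY500307. As for RBPJ, LY500307 replicate 2 was far below the other 3 samples, and the log2 fold change of -0.31 (standard error 0.30) was 0.13 without it. CIR1 has 38.4% exonic GC. DLL3, HES6 and APH1A, with 53.8% to 68.8% GC, stood high in LY500307 replicate 2 alone.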
